A study of Mus musculus with 6 samples.

Results

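The tumor necrosis factor (TNF) superfamily ligands and receptors were followed in LSK cells, the lineage-negative, Sca-1-positive, c-Kit-positive fraction of mouse bone marrow that holds hematopoietic stem cells and multipotent progenitors. Members were taken by name: every locus whose symbol is Tnfsf or Tnfrsf followed by a number, plus Tnf, Lta, Ltb, Ltbr, Cd40 and Cd40lg. The rule took 34 of the 53445 loci in the deposited table, 15 ligands and 19 receptors, and used no measured value. It set aside 3 symbols of the same form (Tnfrsf10b, Tnfrsf13b and Tnfrsf17). Poly(A) RNA was sequenced from female mice on a C57BL/6 background, 3 of the OgaVav-Cre genotype and 3 wildtype, about 12 weeks of age, with at least 20000 sorted LSK cells per mouse. OgaVav-Cre mice came from breeding mice homozygous for a floxed allele of Oga with mice of the Vav-iCre transgene, and the study named heterozygotes as a separate group. Oga encodes O-GlcNAcase, the enzyme that removes O-GlcNAc from proteins. The Vav-iCre transgene is active throughout the blood lineages and not in stem cells alone. Whether the wildtype mice carried the floxed allele or the transgene is not given in the sources used here. Each library stands for 1 mouse, so the p-values measure the spread between these mice.

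TNF superfamily ligands are mostly trimeric membrane proteins, some of them shed as soluble cytokines, and their receptors cluster upon binding. Receptors with a death domain recruit adaptors such as TRADD and FADD, which can lead to caspase activation, and the others bind TRAF proteins and activate NF-κB and MAP kinases. In the immune system the family governs lymphocyte costimulation, survival of B cells, the organization of lymphoid tissue and cell death. In bone marrow, TNF and lymphotoxins act on hematopoietic progenitors, while RANKL and its receptor RANK are best known for driving osteoclast formation.

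The libraries held 25190298, 26078093 and 27064389 reads on loci in OgaVav-Cre replicates 1 to 3 and 20600489, 19318056 and 21684561 in wildtype replicates 1 to 3, of which 10072 to 15687 fell on members. Oga, listed as Mgea5 on the minus strand of chromosome 19, had 104 to 110 reads in the OgaVav-Cre libraries and 2736 to 3164 in the wildtype libraries, as the genotype labels say. A second locus of that symbol, on the plus strand, had 112 to 127 reads in OgaVav-Cre and 392 to 481 in wildtype, a smaller difference. All 10 LSK marker genes had reads in every library, and their summed level was 1195 to 2499 CPM (reads scaled to library size with TMM factors) in OgaVav-Cre and 1577 to 2736 CPM in wildtype. Markers listed for other cell types were also present and uneven. The summed level of 10 B cell markers was 276, 242 and 1196 CPM in OgaVav-Cre replicates 1 to 3 and 556, 185 and 867 CPM in wildtype replicates 1 to 3. The 10 T cell markers summed to 57.3, 48.5 and 180 CPM in OgaVav-Cre and to 62.9, 45.5 and 55.5 CPM in wildtype, so OgaVav-Cre replicate 3 stood apart for that list. It was also the highest library for granulocyte and macrophage (1802 CPM), dendritic cell (1442 CPM) and erythroid (2585 CPM) markers. In the other libraries these lists reached at most 1211, 916 and 872 CPM. Single genes made up much of some sums. Mpo had 298 to 647 CPM among the granulocyte and macrophage markers, and Flt3l had 421 to 678 CPM among the dendritic cell markers. The sums thus do not by themselves show that mature cells were present. For LSK and plasma cell markers OgaVav-Cre replicate 3 was the lowest library. In such bulk samples, fewer cells of a type and less RNA per cell cannot be told apart.

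The sequence just upstream of a member is shown for Tnfsf8, Tnfrsf18 and Tnfrsf11a, whose level was higher in OgaVav-Cre at an unadjusted p below 0.05, and for the receptor Tnfrsf8 and the ligand Ltb. Tnfrsf8 is shown because it binds the product of Tnfsf8, and Ltb because it is the member with the highest level. Each sequence is the 250 bases before the 5′ end of the locus as the table lists it, on the strand of the gene, 5′ to 3′, read from the mouse genome build mm9. That end is an annotated position and not a start site measured here. The windows lie at chr4:63522382-63522631 for Tnfsf8 on the minus strand, chr4:155400023-155400272 for Tnfrsf18 on the plus strand, chr1:107677045-107677294 for Tnfrsf11a on the plus strand, chr4:144905068-144905317 for Tnfrsf8 on the minus strand and chr17:35331202-35331451 for Ltb on the plus strand. Capitals mark matches to the kB consensus bound by NF-κB and, in Tnfrsf8, also the AP-1 motif TGANTCA.
Tnfsf8: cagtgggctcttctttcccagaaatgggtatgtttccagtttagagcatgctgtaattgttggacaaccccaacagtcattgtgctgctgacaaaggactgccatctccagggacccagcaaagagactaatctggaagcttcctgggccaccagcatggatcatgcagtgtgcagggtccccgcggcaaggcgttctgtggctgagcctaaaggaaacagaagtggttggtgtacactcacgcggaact
Tnfrsf18: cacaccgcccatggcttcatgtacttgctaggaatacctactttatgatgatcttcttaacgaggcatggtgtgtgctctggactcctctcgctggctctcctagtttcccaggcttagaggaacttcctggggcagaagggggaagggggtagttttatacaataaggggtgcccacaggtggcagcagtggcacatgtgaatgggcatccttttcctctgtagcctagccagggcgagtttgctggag
Tnfrsf11a: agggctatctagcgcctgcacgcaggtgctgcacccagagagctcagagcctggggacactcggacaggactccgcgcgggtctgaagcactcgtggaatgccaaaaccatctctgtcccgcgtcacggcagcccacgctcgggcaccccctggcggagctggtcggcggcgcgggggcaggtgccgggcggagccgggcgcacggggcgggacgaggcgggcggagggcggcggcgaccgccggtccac
Tnfrsf8: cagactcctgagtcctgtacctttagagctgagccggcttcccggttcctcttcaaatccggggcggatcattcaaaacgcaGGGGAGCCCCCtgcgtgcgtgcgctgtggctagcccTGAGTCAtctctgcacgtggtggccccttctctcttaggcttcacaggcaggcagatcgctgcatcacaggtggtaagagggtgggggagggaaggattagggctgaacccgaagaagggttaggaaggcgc
Ltb: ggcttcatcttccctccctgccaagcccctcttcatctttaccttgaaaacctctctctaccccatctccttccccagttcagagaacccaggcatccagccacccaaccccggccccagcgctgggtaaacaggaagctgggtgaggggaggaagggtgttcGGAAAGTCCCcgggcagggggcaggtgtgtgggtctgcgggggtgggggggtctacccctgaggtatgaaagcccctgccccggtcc

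These motifs were searched on both strands in these windows, the kB consensus, AP-1 (TGANTCA) and RUNX (TGTGGT). The windows of Tnfsf8, Tnfrsf18, Tnfrsf11a and Tnfsf10 held no match to any of them. Over all 34 members, 4 windows held the kB consensus (Cd40, Ltb, Tnfrsf8 and Tnfsf15), 3 held AP-1 (Tnfrsf8, Tnfsf13 and Tnfsf14) and 6 held RUNX. Among the 52360 distinct windows of the table, 5.7%, 6.85% and 15.3% held the kB consensus, AP-1 and RUNX. In Ltb the kB match GGAAAGTCCC lay 87 bases before the locus. In Tnfrsf8 the kB matches overlap each other, and they and the AP-1 match read on both strands. A match describes the letters of the window only.

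A locus was called in edgeR's quasi-likelihood test when its adjusted p was below 0.05 and its estimate more than 1 from 0 on the log2 scale. No member was called in either direction, beside 7 of the 22032 loci tested (0.0318%), 0.00454% higher and 0.0272% lower. Tested members numbered 29, 12 ligands and 17 receptors. Cd40lg, Tnfsf15, Tnfsf18, Tnfrsf8 and Tnfrsf11b were too low to be tested. Without adjustment, 5 members had p below 0.05 (Tnfsf8, Tnfsf4, Tnfrsf18 and Tnfrsf11a higher in OgaVav-Cre, Tnfsf10 lower), 17.2% of those tested beside 10.6% of all loci. The 4 higher members were 13.8% of those tested beside 4.38% of all loci, and for the lower direction the background was 6.27%. These shares count Tnfsf8, which is on the study's own list drawn from these libraries. Without it they were 14.3% in both directions together and 10.7% higher. The same 5 members were those whose genotypes did not overlap, 17.2% beside 17.5% of all loci (7.5% with OgaVav-Cre above and 9.97% below), so the count of separated members was near the background. The median log2 fold change was 0.06 over the members tested, 0.12 over the ligands and 0.06 over the receptors, and 0.0041 over all loci. Of the members tested, 19 had a log2 fold change above 0 (65.5%), as had 50.5% of all loci. A log2 fold change beyond 1 in either direction was estimated for 3 members, Tnfsf8, Tnfsf4 and Tnfrsf19, and for 6.19% of all loci.

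**Figure D1:**
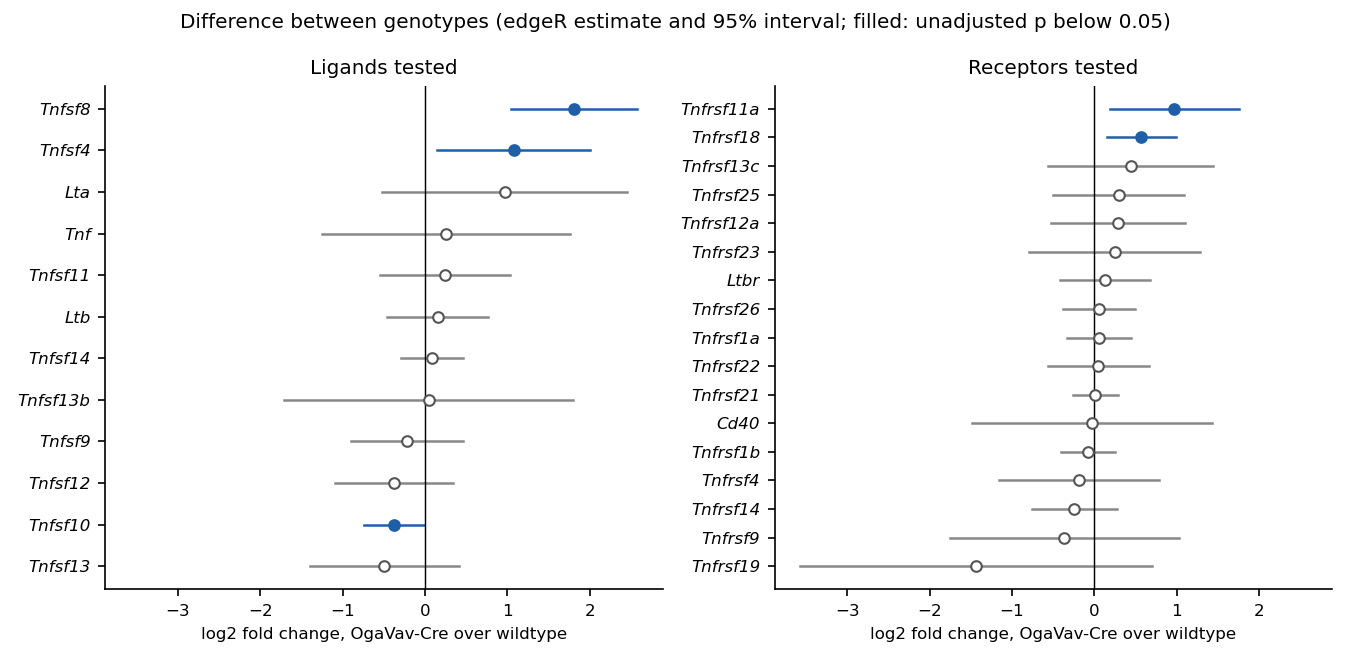
Log2 fold change of OgaVav-Cre over wildtype for the 12 ligands (left) and 17 receptors (right) tested; each point is the edgeR estimate, each line its 95% interval, and filled points have an unadjusted p below 0.05. The interval of Tnfsf8 lies above 1, and those of Tnfrsf1a, Tnfrsf1b, Tnfrsf21, Tnfrsf26 and Tnfsf14 lie within 0.5 of 0.

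Levels were set side by side per length, as RPKM (reads scaled by the length of the locus and by library size). Among the ligands Ltb, the membrane-bound partner of lymphotoxin alpha, was the highest at 49.0 ± 15.8 RPKM in OgaVav-Cre libraries against 45.9 ± 14.1 RPKM in wildtype libraries (SD, n = 3). Tnfsf10 (TRAIL, a death-receptor ligand) followed at 11.3 ± 2.61 and 15.3 ± 0.523 RPKM, and Tnfsf14 (LIGHT, which binds HVEM and the lymphotoxin beta receptor) at 7.19 ± 0.376 and 7.13 ± 0.488 RPKM. Ltb lay above every other ligand in all libraries, from 33.2 to 65.1 RPKM, and Tnfsf10 lay above Tnfsf14 in all libraries. Tnfsf13 (APRIL) at 3.04 ± 1.2 and 4.44 ± 1.74 RPKM and Tnfsf12 (TWEAK) at 2.29 ± 0.501 and 3.10 ± 1.13 RPKM overlapped in their ranges, although Tnfsf13 lay above Tnfsf12 within each of the 6 libraries. These loci share 2985 bases on the same strand with each other and with the read-through locus BC096441, so reads there may be split or counted in more than 1 of them. Tnfsf9 (4-1BB ligand), the sixth ligand in this order, stood at 1.51 ± 0.332 and 1.84 ± 0.178 RPKM.

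Receptors were spread over a narrower range at the top. Tnfrsf13c, which encodes the BAFF receptor of B cells, had 19.7 ± 12.0 RPKM in OgaVav-Cre libraries against 15.1 ± 7.17 RPKM in wildtype libraries. Tnfrsf1a, the death-domain TNF receptor found on most cells, had 12.8 ± 1.85 and 12.9 ± 1.89 RPKM, and Tnfrsf21 (death receptor 6) had 8.93 ± 0.931 and 9.28 ± 0.865 RPKM. Tnfrsf14 (HVEM) at 7.17 ± 1.09 and 8.94 ± 2.05 RPKM, Ltbr (the lymphotoxin beta receptor) at 7.99 ± 2.03 and 7.63 ± 1.51 RPKM and Tnfrsf1b (the second TNF receptor) at 7.37 ± 0.998 and 8.13 ± 1.2 RPKM could not be ordered beyond their spread. Tnfrsf1a and Ltbr lie 35.5 kb apart on chromosome 6. Tnfrsf22, Tnfrsf23 and Tnfrsf26, related receptors on chromosome 7 of which the first and second are known as decoys for TRAIL, overlap the span of Nadsyn1 on the same strand, Tnfrsf22 and Tnfrsf23 whole and Tnfrsf26 over 18207 bases, and their reads are uncertain for that reason.

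**Figure D2:**
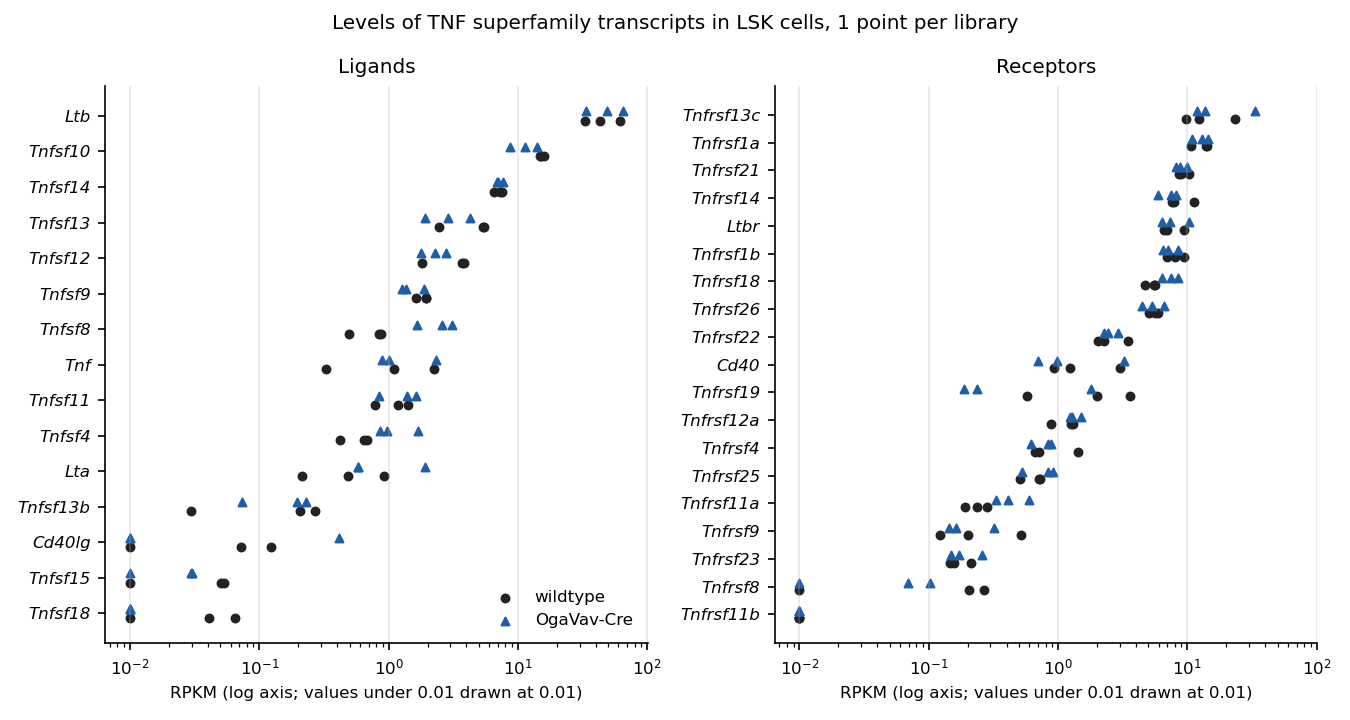
RPKM of each of the 34 members in each library on a log axis, ligands left and receptors right, ordered by their mean; black circles are wildtype, blue triangles OgaVav-Cre, and values under 0.01 are drawn at 0.01. Ltb is highest in every library, and Tnfrsf11b is at 0 in all.

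Tnfsf8 (CD30 ligand, a costimulatory molecule of activated lymphocytes and myeloid cells) differed most. It lies on chromosome 4, minus strand, 63492342 to 63522381, with 4 exons listed. Its reads numbered 280, 344 and 195 in OgaVav-Cre replicates 1 to 3 and 77, 42 and 86 in wildtype replicates 1 to 3, or 12.4, 13.6 and 7.11 CPM and 3.61, 2.18 and 3.64 CPM. All OgaVav-Cre libraries lay above all wildtype libraries, and OgaVav-Cre replicate 3 was the lowest of its genotype. The mean was 11.0 ± 3.46 CPM in OgaVav-Cre libraries against 3.14 ± 0.834 CPM in wildtype libraries (SD, n = 3), a 3.52-fold difference. In edgeR the log2 fold change was 1.81 (SE 0.330, 95% interval 1.04 to 2.58), with an unadjusted p of 0.000674 and an adjusted p of 0.272 over all loci, which misses the threshold. DESeq2's Wald test on the same counts gave a log2 fold change of 1.82 with an adjusted p of 6.1e-05, and called 1 member, Tnfsf8, beside 0.52% of the loci to which it gave an adjusted p. Leaving out any 1 library moved the edgeR log2 fold change between 1.61 and 2.05, with an unadjusted p of 0.000115 to 0.003. Tnfsf8 is on the study's own list of changed genes, which was drawn from these libraries, and so is not independent evidence. OgaVav-Cre replicate 3, the library of its genotype with the least Tnfsf8, also had the lowest LSK and plasma cell marker sums of its genotype. It had the highest sums of its genotype for all other marker lists. These were T cells, B cells, NK and innate lymphoid cells, granulocytes and macrophages, dendritic cells, mast cells and basophils, and erythroid cells. The 10 plasma cell markers summed to 12842, 6128 and 1936 CPM in OgaVav-Cre libraries against 3099, 8385 and 1968 CPM in wildtype libraries. All 10 T cell and all 10 plasma cell markers had an edgeR log2 fold change above 0, with 1 and 0 of them at an unadjusted p below 0.05. Over all loci 50.5% lay above 0 and 10.6% had an unadjusted edgeR p below 0.05. The genotypes overlapped for every T cell and plasma cell marker, and OgaVav-Cre replicate 3 alone stood apart in the T cell sum. Of the 10 dendritic cell markers, 8 lay above 0 and 3 had an unadjusted edgeR p below 0.05 (2 higher, 1 lower). The genotypes did not overlap for 2 of them, beside 17.5% of all loci. The part of these cells in the level of Tnfsf8 was not tested.

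The receptor of CD30 ligand, Tnfrsf8 (CD30), had 0, 7 and 11 reads in OgaVav-Cre libraries against 17, 0 and 24 in wildtype libraries. The genotypes overlapped and each had a library with no read. A count of 0 allows up to 3 reads, 0.133 CPM in OgaVav-Cre replicate 1 and 0.156 CPM in wildtype replicate 2. The other wildtype libraries had 17 and 24 reads, so the spread within the genotype was wide. In edgeR fits with 1 library left out, the log2 fold change of Tnfrsf8 was -2.06 to -0.79, with an unadjusted p of 0.101 to 0.612. Tnfsf15 (TL1A), the next member along chromosome 4 at 86.2 kb from Tnfsf8 on the same strand, had 5, 5 and 0 reads in OgaVav-Cre libraries against 7, 1 and 8 in wildtype libraries. Neither the receptor nor the neighbor of Tnfsf8 was thus separated between genotypes.

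Tnfsf4 (OX40 ligand, which costimulates T cells) lies on chromosome 1. Its level was 1.95, 3.13 and 1.57 CPM in OgaVav-Cre replicates 1 to 3 and 1.22, 0.778 and 1.14 CPM in wildtype replicates 1 to 3. The genotypes did not overlap, but the counts were low, 43 to 79 reads against 15 to 27. The log2 fold change in edgeR was 1.07 (SE 0.399), with an unadjusted p of 0.0282 and an adjusted p of 0.439. The unadjusted p stayed below 0.05 in 3 of 6 fits that left out 1 library each, and was 0.122 without OgaVav-Cre replicate 2. Its receptor Tnfrsf4 (OX40) had a mean of 1.39 ± 0.309 CPM in OgaVav-Cre libraries against 1.58 ± 0.686 CPM in wildtype libraries, with an edgeR log2 fold change of -0.19 (unadjusted p = 0.665). Tnfsf18 (GITR ligand), 76.4 kb from Tnfsf4, had 0 reads in every OgaVav-Cre library and 2, 3 and 0 in wildtype, all at or under the floor of 3 reads.

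Tnfsf10 (TRAIL) was the member at an unadjusted p below 0.05 that was lower in OgaVav-Cre. Its level was 57.5, 84.5 and 67.5 CPM in OgaVav-Cre libraries against 89.3, 96.9 and 86.2 CPM in wildtype libraries. The genotypes did not overlap, although OgaVav-Cre replicate 2 came close to wildtype replicate 3. In edgeR the log2 fold change was -0.38 (SE 0.156, 95% interval -0.74 to -0.02), with an unadjusted p of 0.0428 and an adjusted p of 0.460. The unadjusted p stayed below 0.05 in 1 of 6 fits with 1 library left out, and was 0.138 without OgaVav-Cre replicate 1. Mouse TRAIL decoys Tnfrsf22 and Tnfrsf23 had edgeR log2 fold changes of 0.05 and 0.25, both with intervals that cover 0.

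Tnfrsf18 (GITR, a costimulatory receptor abundant on regulatory T cells) had 12.2, 14.8 and 13 CPM in OgaVav-Cre libraries against 9.32, 9.80 and 7.83 CPM in wildtype libraries. The genotypes did not overlap and each was tightly grouped, at 13.3 ± 1.36 and 8.98 ± 1.03 CPM. The edgeR log2 fold change was 0.57 (SE 0.180, 95% interval 0.15 to 0.99), with an unadjusted p of 0.0139 and an adjusted p of 0.412. It stayed below an unadjusted p of 0.05 in 4 of 6 fits with 1 library left out. Tnfrsf18 lies whole within ENSMUSG00000087381 on the opposite strand, a locus with 68 to 87 reads in OgaVav-Cre and 42 to 54 in wildtype, and whether counting used strand is not stated, so reads of these loci cannot be told apart. Its neighbor Tnfrsf4, 9.55 kb away on the same strand, was not separated between genotypes.

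Tnfrsf11a (RANK, the receptor of RANKL) had 2.88, 2.14 and 3.79 CPM in OgaVav-Cre libraries against 1.5, 1.24 and 1.73 CPM in wildtype libraries. The genotypes did not overlap, and replicate 3 was the highest of each. The edgeR log2 fold change was 0.97 (SE 0.337), with an unadjusted p of 0.0213 and an adjusted p of 0.423, and the unadjusted p was 0.0855 without OgaVav-Cre replicate 3 and 0.0679 without wildtype replicate 2. Its ligand Tnfsf11 (RANKL) overlapped between genotypes, at 3.34 ± 0.906 and 2.83 ± 0.773 CPM. The soluble decoy of RANKL, Tnfrsf11b (osteoprotegerin), had 0 reads in all 6 libraries, which allows up to 0.109 to 0.156 CPM.

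**Figure D3:**
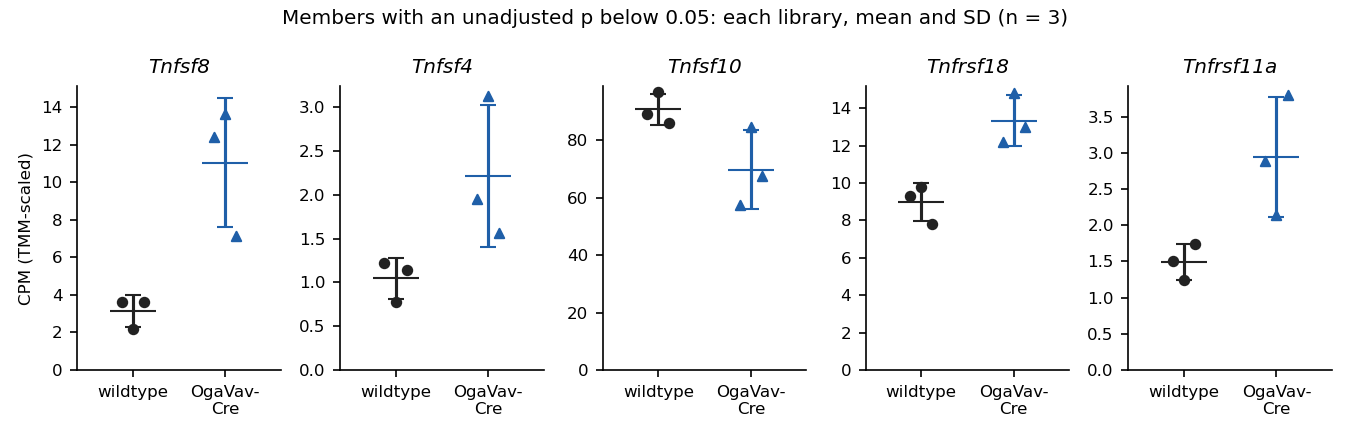
CPM of the 5 members with an unadjusted p below 0.05, 1 panel per gene; points are libraries, horizontal bars the mean of 3 and whiskers the SD, and each axis starts at 0. Genotypes do not overlap in any panel, Tnfsf8 reaches 13.6 CPM in OgaVav-Cre against at most 3.64 CPM in wildtype, and Tnfsf10 is lower in OgaVav-Cre.

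Several members varied more within a genotype than between them. Cd40, a costimulatory receptor of B cells and other antigen-presenting cells, had 4.17, 2.73 and 12.4 CPM in OgaVav-Cre libraries against 4.73, 3.68 and 11.3 CPM in wildtype libraries. Tnfrsf13c had 30.5, 32.4 and 77.6 CPM in OgaVav-Cre libraries against 27.9, 23.2 and 52.2 CPM in wildtype libraries. Replicate 3 was the highest of each genotype for both genes, as it was for the summed B cell markers. Of 29 members tested, 7 were highest in replicate 3 of both genotypes (Cd40, Lta, Ltb, Tnf, Tnfrsf11a, Tnfrsf13c and Tnfrsf1b), 24.1% beside 15.9% of all loci. Another 8 were highest in replicate 2 of both (Ltbr, Tnfrsf12a, Tnfrsf18, Tnfrsf1a, Tnfrsf26, Tnfsf10, Tnfsf12 and Tnfsf13), 27.6% beside 15.8%, so the count for replicate 3 did not stand apart. The part of B cell RNA in these levels was not tested. The edgeR log2 fold changes were -0.03 for Cd40 and 0.44 for Tnfrsf13c, and without OgaVav-Cre replicate 3 they were -0.94 and -0.13.

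Lta, Tnf and Ltb, which encode lymphotoxin alpha, TNF and lymphotoxin beta, lie within a cluster on chromosome 17, with gaps of 3.08 kb between Ltb and Tnf and 1.16 kb between Tnf and Lta. Lta had 1.69, 1.54 and 5.03 CPM in OgaVav-Cre libraries against 1.27, 0.571 and 2.37 CPM in wildtype libraries, and its edgeR log2 fold change of 0.97 (unadjusted p = 0.172) was 0.19 without OgaVav-Cre replicate 3. Tnf had 1.82, 1.90 and 4.31 CPM in OgaVav-Cre libraries against 2.01, 0.622 and 4.06 CPM in wildtype libraries. Ltb had 45.9, 61.1 and 80.7 CPM in OgaVav-Cre libraries against 40.7, 54.7 and 73.4 CPM in wildtype libraries. All of the cluster overlapped between genotypes, and each gene was highest in replicate 3. Cd40lg (CD40 ligand, a product of activated T cells) had 0, 0 and 16 reads in OgaVav-Cre libraries against 0, 2 and 4 in wildtype libraries, with the most reads in the OgaVav-Cre library that also had the highest T cell marker sum.

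Tnfrsf19 (TROY, an orphan-like receptor studied mostly in epithelium and brain) varied widely within both genotypes. Its level was 1.46, 1.07 and 10.1 CPM in OgaVav-Cre libraries against 20.1, 3.32 and 11.0 CPM in wildtype libraries. OgaVav-Cre replicate 3 lay among the wildtype libraries, and the other two lay below all of them. The edgeR log2 fold change was -1.43 (SE 0.921, unadjusted p = 0.160) with all libraries and -3.18 (unadjusted p = 0.0028, adjusted p = 0.212) without OgaVav-Cre replicate 3. The summed level of 10 NK cell and innate lymphoid cell markers was 72.6, 75.2 and 173 CPM in OgaVav-Cre libraries against 181, 88.6 and 124 CPM in wildtype libraries, with its highest library in each genotype the same as for Tnfrsf19. The 8 mast cell and basophil markers, at 30.6, 14 and 108 CPM in OgaVav-Cre libraries against 97.8, 47.4 and 47.8 CPM in wildtype libraries, had the same highest libraries. So did the T cell markers and the 10 dendritic cell markers, so the pattern was not particular to any of these cell types. The dendritic cell markers summed to 825, 916 and 1442 CPM in OgaVav-Cre libraries against 833, 738 and 668 CPM in wildtype libraries. The other marker lists did not share both highest libraries. The part of any cell type in the level of Tnfrsf19 was not tested.

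**Figure D4:**
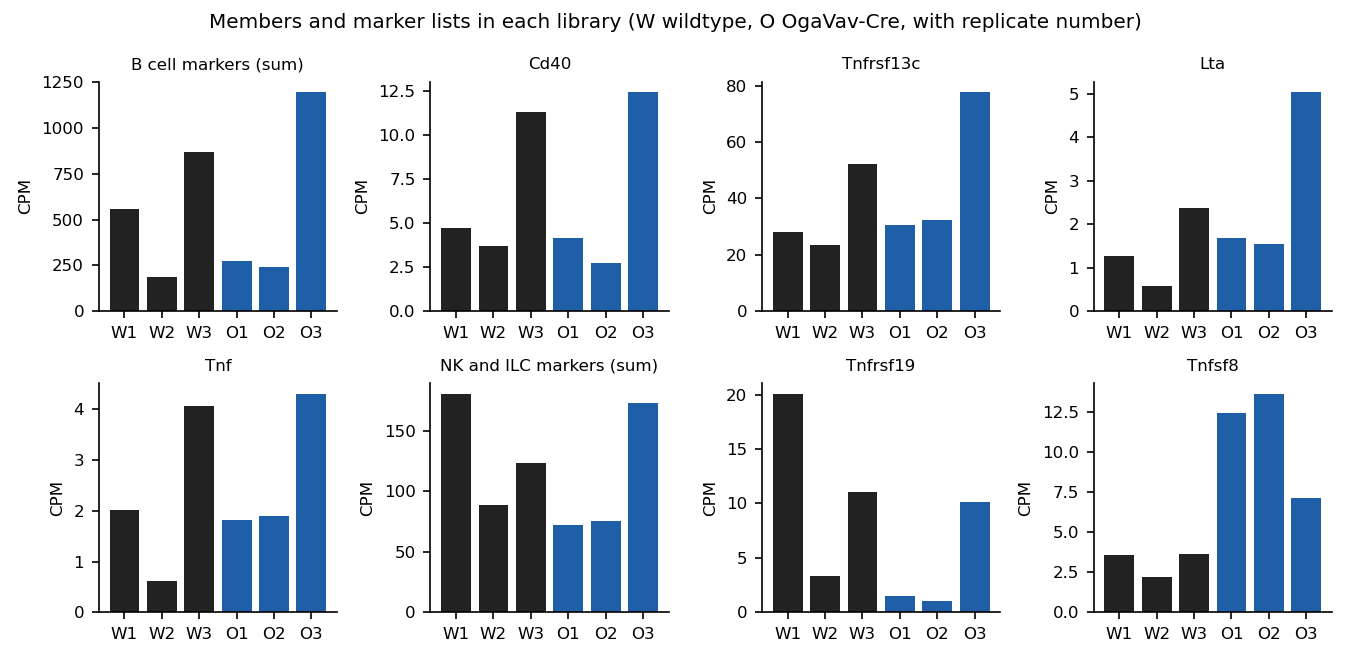
CPM in each library (W wildtype, black; O OgaVav-Cre, blue; with replicate number) of the summed B cell and NK and innate lymphoid cell markers and of 6 members; every axis starts at 0. Cd40, Tnfrsf13c, Lta and Tnf are highest in replicate 3 of each genotype, Tnfrsf19 is highest in W1, and Tnfsf8 is higher in all of O1 to O3 than in W1 to W3.

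For some members the interval was narrow enough to bound the difference. The 95% interval of the log2 fold change lay within 0.5 of 0 for 1 ligand, Tnfsf14, and 4 receptors, Tnfrsf1a, Tnfrsf1b, Tnfrsf21 and Tnfrsf26. Within 1 of 0 lay the intervals of 4 ligands and 8 receptors, which add Ltb, Tnfsf9, Tnfsf10, Ltbr, Tnfrsf14, Tnfrsf18 and Tnfrsf22. The receptors of TNF were thus bounded closely, at -0.33 to 0.45 for Tnfrsf1a and -0.40 to 0.25 for Tnfrsf1b. Tnf itself was not, with an interval of -1.25 to 1.76. Of the remaining members tested, Tnfsf11, Tnfsf12, Tnfsf13, Tnfsf13b (BAFF), Tnfrsf4, Tnfrsf9 (4-1BB), Tnfrsf12a (the TWEAK receptor), Tnfrsf23 and Tnfrsf25 (death receptor 3) overlapped between genotypes and had unadjusted p of 0.242 to 0.956. Tnfsf13b was low, at 1.10 ± 0.546 and 1.07 ± 0.806 CPM, beside the high level of its receptor Tnfrsf13c.

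The other genes of the pathway were taken from fixed lists: family members under other names, TRAF and death-domain adaptors, the cell death branch, the NF-κB core and genes that respond to NF-κB. Of 78 listed genes, 71 were tested and none was called in edgeR, and 3 had an unadjusted p below 0.05, 4.23% beside 10.6% of all loci. Ikbkb, the kinase that marks IκB for destruction, had 82.5, 74.4 and 122 CPM in OgaVav-Cre libraries against 113, 126 and 167 CPM in wildtype libraries, with an edgeR log2 fold change of -0.54 (unadjusted p = 0.0444, adjusted p = 0.460). Ccl3, a chemokine, had 7.67, 6.21 and 3.50 CPM in OgaVav-Cre libraries against 7.26, 23.7 and 10.4 CPM in wildtype libraries, with -1.25 (unadjusted p = 0.0313). Fth1, the heavy chain of ferritin, had 586 ± 79.5 and 462 ± 35.3 CPM, with 0.34 (unadjusted p = 0.0491). Ikbkb and Ccl3 overlapped between genotypes and Fth1 did not.

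The other genes with the smallest p of each list had an unadjusted p above 0.05. Birc2 (cIAP1, a ubiquitin ligase bound to TRAF2) had 57.1 ± 3.40 CPM in OgaVav-Cre libraries against 68.7 ± 6.37 CPM in wildtype libraries without overlap (edgeR log2 fold change -0.27, unadjusted p = 0.0534), and Icam1, an adhesion molecule induced by TNF, had 39.5 ± 3.39 and 49.1 ± 5.80 CPM (-0.31, unadjusted p = 0.0528). Bid and Cyld, a link from caspase-8 to mitochondria and a deubiquitinase of the TNF receptor complex, had edgeR log2 fold changes of 0.18 and 0.16, and Rela and Relb, subunits of NF-κB, 0.21 and 0.39. Among the adaptors, Traf6, Trafd1 and Fadd had log2 fold changes of -0.22, -0.21 and 0.33 and overlapped between genotypes. Fasl, Relt and Cd27, family members named otherwise, had -0.79, 0.19 and -0.27 and overlapped as well. Cd27, a costimulatory receptor, was among the more abundant at 101 ± 30.5 and 121 ± 25.7 CPM, while its ligand Cd70 had at most 2 reads in any library and was not tested.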

How the data were processed

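LSK cells of 3 OgaVav-Cre and 3 wildtype mice were compared. Single-end 50 bp sequencing was mapped to mm9 by the authors, who counted reads on loci in Genomatix. CASAVA 1.8.2 is named in the submitters' processing notes, and the version of the counting and its use of strand are not given in the sources used here. The deposited counts are raw reads per locus. The deposited RPKM divide the counts by locus length and by a library-specific total that exceeds the sum of the counts. The table also holds fold changes and p-values from the authors' fit and 6 columns of normalized expression, which were not used.

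Counts of all loci were fitted with edgeR 4.0.16 in R 4.3.3 (TMM, filterByExpr, glmQLFit and glmQLFTest, legacy = TRUE), and p-values were Benjamini-Hochberg adjusted over the 22032 loci tested. CPM are scaled by TMM. A call needed an adjusted p below 0.05 with an estimate beyond 1 on the log2 scale. DESeq2 1.42.0, limma 3.58.1, log2(RPKM + 0.1 or 1), other filters and size factors, a replicate block and leaving out each library were the alternatives. The fits were tested on simulated counts. Intervals of single counts cover counting error only. With 3 mice per genotype an exact permutation test could not go below p = 0.1, so none was run.

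Promoter windows came from the NCBIM37 genome, whose contigs matched the table on all 21 chromosomes, and not every window searched is reported here. Every member was accounted for, with values per library for members at an unadjusted p below 0.05 or without overlap, for Tnfsf8, Tnfrsf8 and Tnfsf15, for the 6 most abundant ligands and receptors and for partners, and of each pathway list the genes called and up to 3 with the smallest p. Other genes, among them Cd40, Cd40lg, Tnfrsf19 and Tnf, were named after their values were seen. The members and lists were chosen with earlier results of these data known. Over all libraries the granulocyte and macrophage, dendritic cell and erythroid marker lists summed to 472 to 1802, 668 to 1442 and 325 to 2585 CPM.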

Additional observations from a re-analysis of the deposited data

How the results depend on the processing

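The 5 members at an unadjusted p below 0.05 kept their direction under all 16 alternatives, and no pathway gene was called under any. The genotypes of these 5 do not overlap, so leaving out 1 library could hardly reverse them. The other alternatives refit the same libraries. Tnfsf8 passed the threshold under DESeq2 (log2 fold change 1.82, or 1.34 shrunken, each time 1 member called) and under no other alternative. It was 1.61 to 2.05 with 1 library left out, while members called stayed at 0. Loci called numbered 7 in the fit reported, 21 with no filter on low counts, 4 with at least 10 reads in every library, 116 under DESeq2, 66 under DESeq2 with shrunken fold changes, 4 with RPKM and a pseudocount of 1, and 3 to 9 with 1 library left out. Members at an unadjusted p below 0.05 numbered 5, 3 with RPKM, a pseudocount of 0.1 and no filter, and 2 to 5 with 1 library left out (2 without wildtype replicate 2 or 3, where Tnfsf8 and 1 receptor remained). Members without overlap numbered 5, and 6 to 9 with 1 library left out (9 without OgaVav-Cre replicate 3). With fewer libraries any locus separates more easily, and the share over all loci was not counted there. The rise is thus no result about the members. The median log2 fold change of the members was -0.01 to 0.13 with 1 library left out. The deviations of same-numbered libraries from their genotype means correlated with r of -0.081, 0.26 and 0.316 for replicates 1 to 3. OgaVav-Cre replicates 2 and 3 each correlated best with the wildtype library of the same number. OgaVav-Cre replicate 1 correlated best with wildtype replicate 2 (r = 0.206). With 3 libraries per genotype these values cannot show whether the mice were paired. With the replicate block, 7 members had an unadjusted p below 0.05 (Lta, Tnfrsf13c and Tnfrsf19 added, Tnfsf4 lost), 6 loci and 0 members were called, and Tnfsf8 had 1.78. The causes were not tested. The 5 untested members had too few reads to pass the filter in the fit reported.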
